A study of Mus musculus with 2 samples.

Results

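The 10 core circadian clock genes Arntl, Clock, Npas2, Per1, Per2, Per3, Cry1, Cry2, Nr1d1 and Nr1d2 were taken by symbol from a table of 21936 mouse liver genes, and each matched 1 row. They comprise 3 activator genes (Arntl, Clock and Npas2), 5 genes of the PER and CRY repressors, and 2 genes of the REV-ERB repressors (Nr1d1 and Nr1d2). Their RNA was compared between 1 knockout library (hnRNPK flox/flox Alb-Cre) and 1 control library (hnRNPK flox/flox) to see how the clock's transcripts stand when Hnrnpk is deleted in the liver. Both groups carry the floxed hnRNPK alleles. The knockout adds Alb-Cre, a Cre recombinase driven by the promoter of albumin. That promoter works in hepatocytes and their precursors, so endothelial cells, stellate cells and macrophages of the liver are expected to keep the gene. The series title names the groups Wild Type and hnRNPK-MKO and leaves that abbreviation unexplained. The sources used here do not give age, sex, the number of mice in a library, the lighting schedule or the hour of collection. Clock transcripts change over the day, so genotype and hour of collection cannot be told apart in these values.

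The mammalian clock is a loop of transcription. BMAL1, the protein of Arntl, pairs with CLOCK or with its paralog NPAS2 and activates genes through E-boxes, among them the Per, Cry and REV-ERB genes. PER and CRY proteins return to the nucleus and repress that pair, while the REV-ERB proteins repress Arntl and other genes through ROR response elements, at which the ROR receptors activate. A further group of factors, the PAR bZIP activators and their opponent NFIL3, acts through D-boxes. In the liver this loop gives daily rhythms to genes of sugar, lipid, bile acid and drug metabolism. The activator transcripts peak in these rhythms at about the opposite time of day to Nr1d1.

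Stretches next to the start sites of 5 of the genes hold letters that match elements of the kinds through which the loop acts. They are RefSeq sequences of build GRCm38.p6, printed 5′ to 3′ on the gene's strand in lower case, with the matched elements in capitals. Per1, Per3, Cry1 and Nr1d1 are given as the 250 bases before a RefSeq start, and Arntl as 30 bases around its 1 match. They lie at chr11:69098699-69098948 (plus strand) for Per1, chr4:151044666-151044915 (minus) for Per3, chr10:85185055-85185304 (minus) for Cry1, chr11:98775378-98775627 (minus) for Nr1d1 and chr7:113207529-113207558 (plus) for Arntl.
Per1: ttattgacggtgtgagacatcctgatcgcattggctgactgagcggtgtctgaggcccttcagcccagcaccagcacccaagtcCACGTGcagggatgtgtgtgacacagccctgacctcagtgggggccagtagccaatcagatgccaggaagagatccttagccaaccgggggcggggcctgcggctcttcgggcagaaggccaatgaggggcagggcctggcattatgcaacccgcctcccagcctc
Per3: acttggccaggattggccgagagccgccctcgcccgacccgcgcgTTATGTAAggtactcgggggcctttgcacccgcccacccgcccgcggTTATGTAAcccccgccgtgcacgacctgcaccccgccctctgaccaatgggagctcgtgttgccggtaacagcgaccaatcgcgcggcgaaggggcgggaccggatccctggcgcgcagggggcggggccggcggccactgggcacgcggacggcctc
Cry1: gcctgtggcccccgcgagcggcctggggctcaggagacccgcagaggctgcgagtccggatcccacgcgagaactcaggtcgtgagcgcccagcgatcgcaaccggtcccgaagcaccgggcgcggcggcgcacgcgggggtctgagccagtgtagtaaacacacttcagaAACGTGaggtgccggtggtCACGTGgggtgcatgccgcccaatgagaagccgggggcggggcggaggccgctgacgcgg
Nr1d1: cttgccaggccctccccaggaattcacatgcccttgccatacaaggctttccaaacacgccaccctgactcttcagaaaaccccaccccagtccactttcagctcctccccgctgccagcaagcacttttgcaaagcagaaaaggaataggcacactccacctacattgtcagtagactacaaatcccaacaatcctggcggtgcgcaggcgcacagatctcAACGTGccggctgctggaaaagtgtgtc
Arntl: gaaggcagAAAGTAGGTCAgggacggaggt

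The elements searched on both strands were the E-box CACGTG, the variant E-box CACGTT, the D-boxes TTATGTAA and TTACGTAA, and the ROR response element consensus. No match overlapped another. In Cry1 and Nr1d1 the variant E-box lies on the other strand and so reads AACGTG in the printed stretch. The windows ran from 250 bases before to 50 bases after a start, and 9 of the 10 genes had 1 or more, 13 windows in all. Per1 held an E-box at position -166, counted from the start. Cry1 held an E-box at position -60 and a variant E-box at -79. Nr1d1 held a variant E-box at -28 and Cry2 one at -166. Per3 held 2 D-boxes, at -205 and -158, both of the form TTATGTAA. Arntl held a ROR response element at position 27 after 1 of its 2 listed starts. No element was found in the windows of the other 3 genes, Clock, Npas2 and Nr1d2. Of all 32851 windows of this length in the table, 7.15% held the E-box, 4.68% the variant, 0.938% the D-box TTATGTAA, 0.119% the D-box TTACGTAA and 0.384% the ROR response element. These matches describe letters, not bound sites.

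The table held 12176239 counted reads for the knockout and 12428975 for the control. FPKM is the read count scaled by gene length and library total. Genes with an FPKM of 1 or more and 20 reads or more in at least 1 library were evaluated. This left 9563 genes. There were no replicates, so no test across samples could be made, and every interval below is an exact 95% interval for counting error only. Hnrnpk, the targeted gene, had 1411 reads in the knockout and 2559 in the control, 0.567 of the control level (0.531 to 0.605). The hepatocyte marker Alb was at an FPKM of 31832 in the knockout and 32028 in the control. Across evaluated genes the log2 ratio of knockout over control had a median of -0.03, and its 5th and 95th percentiles were -0.59 and 0.67.

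In the knockout library the PER and CRY transcripts were lower, Nr1d1 was higher, Nr1d2 and Clock were close to their control levels, and Arntl and Npas2 had few reads in either library. Of the 10 genes 8 were evaluated, and Arntl and Npas2 were not. None of the 8 was at least 2-fold apart, where 3.66% of all evaluated genes were. At a wider 1.5-fold limit 1 of the 8, Nr1d1, was apart, or 12.5%, beside 11.5% of all evaluated genes, so these counts are near the background. The counting interval excluded a ratio of 1 for 6 of the 8, with 5 lower and 1 higher. Among all evaluated genes it excluded 1 for 46.8% (26.0% lower and 20.8% higher). Whether an interval excludes 1 depends on how many reads a gene has, and these shares were not matched for reads. Corrected for gene length, the interval excluded 1 for 6 of the 8 as well, beside 44.0% of all evaluated genes. Here 4 were lower and 2 higher, since Per3 no longer counted and Nr1d2 did. That correction subtracts the running median log2 ratio of genes of like length and was applied to the intervals after the data were seen. The median log2 ratio of the 8 was -0.29 without it. In bulk liver, fewer cells of a type and less RNA per cell cannot be told apart.

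**Figure D1:**
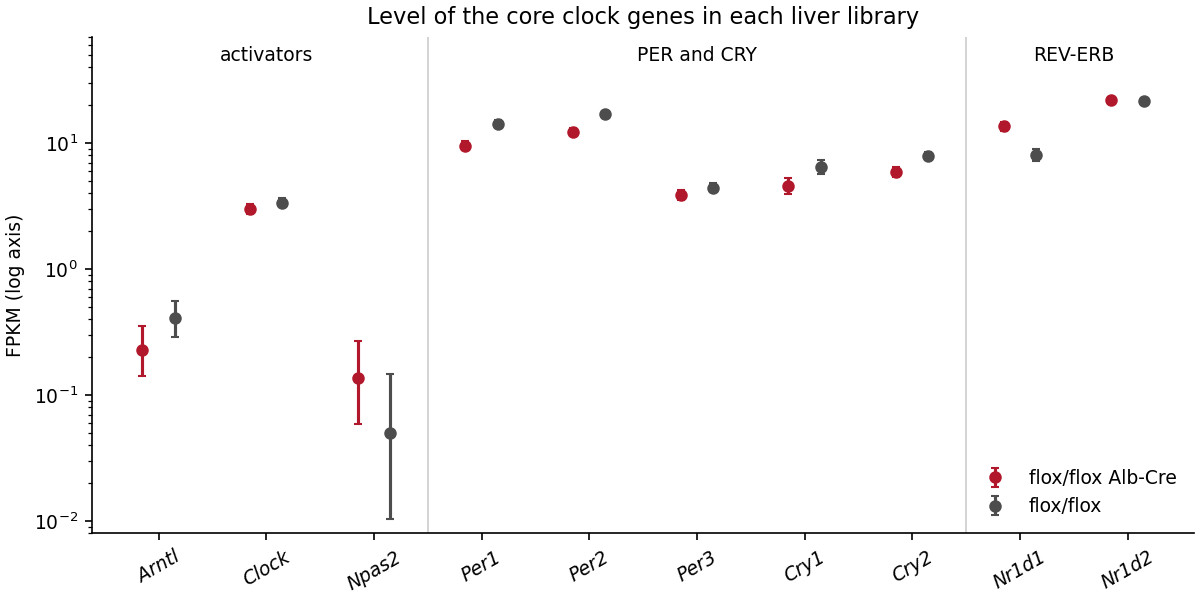
FPKM of each core clock gene on a log axis in the knockout library (red, left of each pair) and the control library (grey, right), with 1 library per genotype. Bars are exact 95% counting intervals. The PER and CRY genes sit lower in the knockout, Nr1d1 sits at 13.6 against 8.11, and Arntl and Npas2 lie below 1 in both libraries.

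By level per length, the order in the knockout was Nr1d2 (FPKM 22.0), Nr1d1 (13.6), Per2 (12.4), Per1 (9.55), Cry2 (5.95), Cry1 (4.60), Per3 (3.86), Clock (3.02), Arntl (0.229) and Npas2 (0.137). In the control it was Nr1d2 (FPKM 21.7), Per2 (16.9), Per1 (14.2), Nr1d1 (8.11), Cry2 (7.91), Cry1 (6.48), Per3 (4.43), Clock (3.38), Arntl (0.406) and Npas2 (0.0504). The order differed between the libraries only in Nr1d1, which stood above Per2 and Per1 in the knockout and below both in the control. Neighbours whose levels were not separated by counting error were Nr1d1 with Per2 and Arntl with Npas2 in the knockout, and Nr1d1 with Cry2 in the control. Cry1 and Per3 in the knockout were separated by a narrow margin, with a ratio of 1.19 (1.0004 to 1.42).

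All 5 PER and CRY genes had a log2 ratio below 0, as did 54.0% of evaluated genes. Their median was -0.44, with a range of -0.57 to -0.19, beside the median of -0.03 over all evaluated genes. Summed, they had 2633 reads in the knockout and 3647 in the control. None passed the 1.5-fold limit, which 5.37% of evaluated genes passed in the lower direction.

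Per1 encodes a PERIOD protein whose gene also responds quickly to hormonal cues such as glucocorticoids (mm10 chromosome 11, 69095217 to 69109960, plus strand). It had 655 reads in the knockout and 997 in the control, an FPKM of 9.55 and 14.2. Its level was 0.676 of control (0.611 to 0.746), a log2 ratio of -0.57, and 5.80% of evaluated genes had a ratio as low or lower. This was the largest difference in the PER and CRY group.

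Per2, which encodes the PERIOD protein most needed for rhythm in mice beside PER1 (chromosome 1, 91415982 to 91459324, minus strand), had 882 knockout and 1231 control reads. It stood at 0.737 of control (0.675 to 0.804), a log2 ratio of -0.44. Per3, which holds the D-boxes printed above and whose protein is not required for daily rhythm in mice (chromosome 4, 151003652 to 151044665, minus strand), had 451 knockout and 529 control reads. It stood at 0.877 of control, the smallest difference of the 5, and its interval of 0.772 to 0.996 ended just under 1. Corrected for gene length it was at 0.953 of control (0.839 to 1.08), an interval that includes 1. Per1 over Per3, a ratio of reads within a library that needs no scaling between libraries, was 1.45 in the knockout and 1.88 in the control. The ratio of those ratios was 0.771 (0.655 to 0.907). For Per2 over Per3 it was 0.840 (0.719 to 0.982), and for Per1 over Per2 it was 0.917 (0.802 to 1.05), an interval that includes 1.

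Cry1 encodes the cryptochrome with the stronger repression of the activator pair (chromosome 10, 85131700 to 85185064, minus strand). It had 187 reads in the knockout and 269 in the control, 0.715 of control (0.590 to 0.865) and a log2 ratio of -0.48. Cry2 (chromosome 2, 92403646 to 92434043, minus strand) had 458 knockout and 621 control reads, 0.759 of control (0.671 to 0.857) and a log2 ratio of -0.40. The 2 cryptochrome genes kept a similar balance, with Cry1 over Cry2 at 0.408 in the knockout and 0.433 in the control. That ratio of ratios was 0.943, and its interval of 0.750 to 1.18 allows a shift either way. An annotated transcript on the opposite strand, D930015M05Rik, shares 295 exonic bases with Cry2, and the sources used here do not give the strand setting of the counting.

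**Figure D2:**
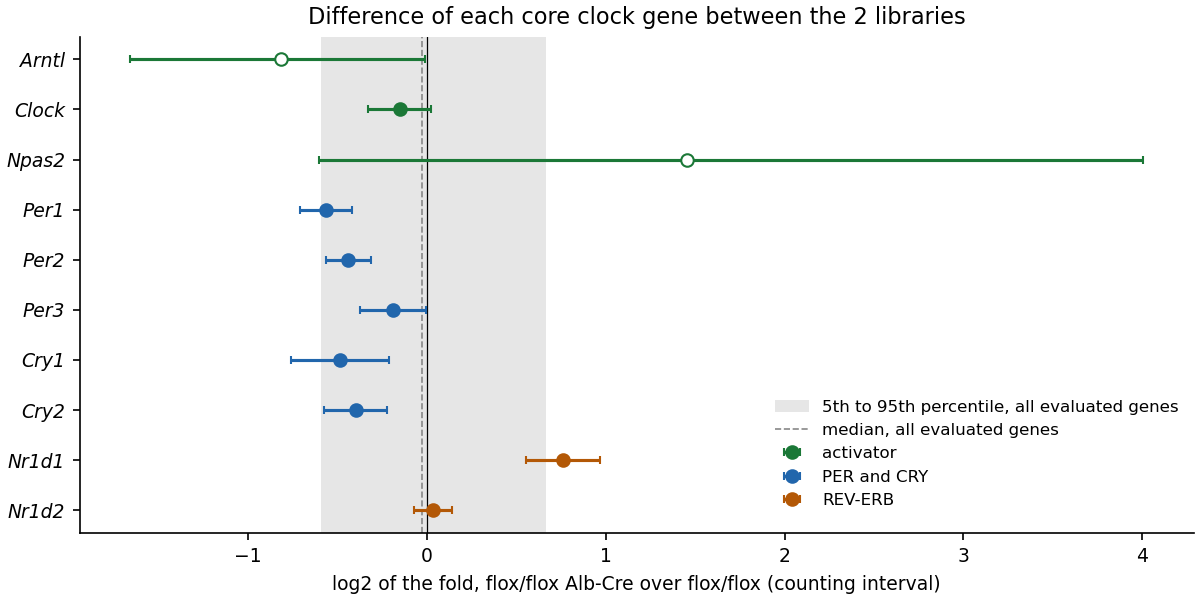
Log2 of the fold of knockout over control for each core clock gene, coloured by arm, with exact 95% counting intervals. Open symbols are the genes not evaluated, the grey band runs from the 5th to the 95th percentile of all evaluated genes (-0.59 to 0.67) and the dashed line is their median. Nr1d1 lies above the band at 0.76, and the PER and CRY genes lie in its lower part.

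The REV-ERB genes differed from each other. Nr1d1 encodes REV-ERB alpha, the heme-binding nuclear receptor that represses Arntl (chromosome 11, 98767932 to 98775333, minus strand). It had 510 reads in the knockout and 310 in the control, an FPKM of 13.6 and 8.11. The level was 1.69-fold higher in the knockout (1.47 to 1.95), a log2 ratio of 0.76, and 95.9% of evaluated genes had the same or a lower ratio. It was the 1 member past the 1.5-fold limit, which 6.16% of evaluated genes passed in the higher direction.

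Nr1d2 encodes REV-ERB beta, the paralog with partly shared function, and was the most highly expressed of the 10 genes in both libraries (chromosome 14, 18204054 to 18239127, minus strand). It had 1451 reads in the knockout and 1460 in the control, a fold of 1.02 (0.950 to 1.10), or 1.095 (1.02 to 1.18) corrected for gene length. Nr1d1 over Nr1d2 was 0.351 reads per read in the knockout and 0.212 in the control, and the ratio of those ratios was 1.66 (1.41 to 1.95). The median log2 ratio of 0.39 for the pair is thus the midpoint between 0.76 for Nr1d1 and 0.03 for Nr1d2. The 3′ end of Nr1d1 overlaps Thra, the thyroid hormone receptor alpha gene on the opposite strand, over 263 exonic bases. Thra as a whole had 103 reads in the knockout and 82 in the control. The strand setting of the counting is not given here either, and the part of the overlap in the Nr1d1 reads was not tested.

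Of the activators only Clock was expressed highly enough to be evaluated. It encodes the partner of BMAL1 (chromosome 5, 76209868 to 76304792, minus strand) and had 504 reads in the knockout and 576 in the control. The level was 0.900 of control (0.797 to 1.02), a log2 ratio of -0.15, so no difference was detectable at this depth. Corrected for gene length, this log2 ratio was 0.035. Clock has the longest gene model of the 10, 13727 bases.

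Arntl (chromosome 7, 113207465 to 113314126, plus strand) had 21 reads in the knockout and 38 in the control, an FPKM of 0.229 and 0.406. The level was 0.568 of control, with an interval of 0.317 to 0.993 that nearly reached 1 and that ran from 0.344 to 1.08 once corrected for gene length. Clock thus exceeded its partner 13.2-fold per length in the knockout and 8.31-fold in the control. The interval for Arntl over Clock, compared between libraries, included 1 (0.632, 0.347 to 1.12). Npas2 (chromosome 1, 39193731 to 39363236, plus strand) had 8 reads in the knockout and 3 in the control, a ratio of 2.74 with a counting interval of 0.658 to 16.1 that allows either direction. With so few Arntl and Npas2 reads, the activator arm rests on Clock, which gave 504 of 533 reads in the knockout and 576 of 617 in the control.

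Set against each other within a library, the arms stood as follows. The activators had 0.202 reads per PER and CRY read in the knockout and 0.169 in the control, a ratio of ratios of 1.20 (1.05 to 1.36). Without Clock, that ratio was 0.980 (0.586 to 1.62), so it rests on 1 gene. The activators had 0.272 reads per REV-ERB read in the knockout and 0.349 in the control, a ratio of ratios of 0.780 (0.681 to 0.892). Without Clock this ratio was 0.638 (0.381 to 1.06), an interval that includes 1. Against all 7 repressor genes together the ratio of ratios was 1.02 (0.899 to 1.15), with a lower PER and CRY sum and a higher REV-ERB sum in the knockout.

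The larger shift was between the repressor arms. REV-ERB over PER and CRY reads stood at 0.745 in the knockout and 0.485 in the control, a ratio of ratios of 1.53 (1.41 to 1.67). With Nr1d1 alone in place of both REV-ERB genes it was 2.28 (1.96 to 2.66). Nr1d1 over Per1 was 0.779 in the knockout and 0.311 in the control, a ratio of ratios of 2.50 (2.10 to 2.99). The same quantity was 2.30 for Per2 (1.94 to 2.72), 2.37 for Cry1 (1.86 to 3.01) and 1.88 for Clock (1.56 to 2.27). Of all 45 pairs among the 10 genes the interval excluded 1 in 19, and these included 8 of the 9 pairs with Nr1d1 and 11 of the 36 pairs without it. The pairs share genes and are not independent. No share of pairs over all evaluated genes was computed, so these counts have no background. Each pair with Nr1d1 carries the ratio of Nr1d1 itself, and the 1 such pair whose interval included 1 was with Npas2, which had few reads.

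**Figure D3:**
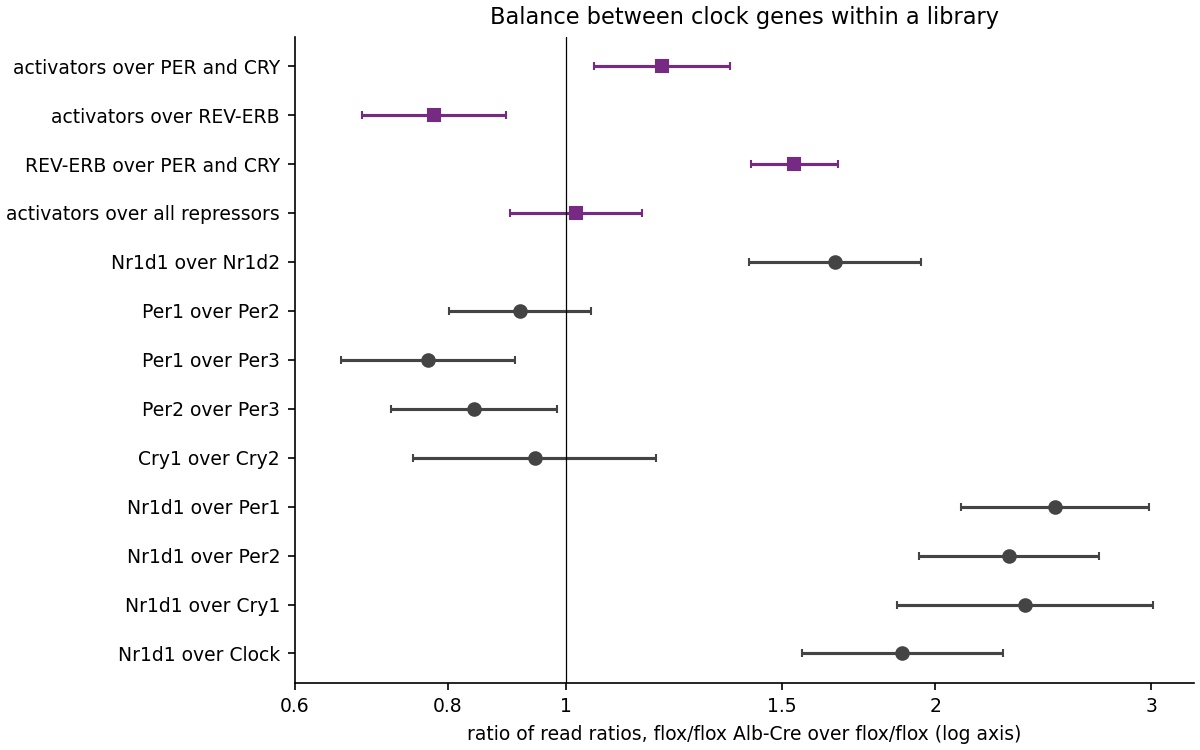
Ratio of read ratios, knockout over control, on a log axis for arms (purple squares) and single pairs (grey circles), with exact conditional 95% counting intervals. A value of 1 means the same balance in both libraries. Nr1d1 against Per1, Per2, Cry1 and Clock lies between 1.88 and 2.50, while Per1 over Per2 and Cry1 over Cry2 include 1.

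Most other genes of the clock pathway also had log2 ratios below 0. This held for 6 of 7 evaluated loop partners, 12 of 14 regulators of protein turnover, 9 of 13 cofactors and 7 of 9 outputs, beside 54.0% of all evaluated genes. Of 10 loop partners 7 were evaluated, 1 was at least 2-fold lower and 0 higher, beside 1.13% lower and 2.53% higher among all evaluated genes, and the median log2 ratio was -0.27. The 2-fold lower gene was Nfil3, which encodes the D-box repressor and is a known target of REV-ERB repression. It had 128 reads in the knockout and 269 in the control, 0.489 of control (0.393 to 0.606). Bhlhe40, an E-box repressor, differed least, with a log2 ratio of -0.12.

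The PAR bZIP genes went both ways. Dbp, a direct E-box target that peaks soon after Nr1d1 in mouse liver, had 1039 reads in the knockout and 760 in the control, 1.41-fold higher (1.28 to 1.55). Tef had 2873 and 3445 reads in knockout and control, 0.858 of control (0.816 to 0.902). Hlf had 710 reads in the knockout and 965 in the control, 0.757 of control (0.686 to 0.835). By sign, Dbp was thus on the side of Nr1d1, and Tef and Hlf were on the side of the PER and CRY genes. Corrected for gene length, the log2 ratios were 0.45 for Dbp, -0.29 for Hlf and only -0.087 for Tef.

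Of 16 genes for kinases, ubiquitin ligases, deubiquitinases and other regulators of clock protein turnover, 14 were evaluated, 0 were 2-fold apart (3.66% of all evaluated genes were) and the median log2 ratio was -0.19. Csnk1e, the casein kinase gene whose product phosphorylates PER proteins, had the largest difference, with 112 reads in the knockout and 72 in the control (1.60-fold, 1.18 to 2.18). Its FPKM was 1.40 in the knockout and 0.879 in the control, so it passed the minimum only in the library where it was higher. Fbxw11, a ligase subunit gene, was at -0.01. Of 14 cofactor genes 13 were evaluated, 0 were 2-fold apart, beside the same 3.66%, and the median was -0.18. Timeless was lowest at -0.52 (59 reads in the knockout and 87 in the control), and Nono was at 0.01. Timeless had an FPKM of 0.792 in the knockout and 1.14 in the control, so it passed the minimum in the control only. Of 10 clock output genes, 5 of which are also loop partners, 9 were evaluated, 0 were 2-fold apart, again beside 3.66%, and the median was -0.34. Nampt, the rate-limiting enzyme of NAD salvage and an E-box target, was lowest, with 813 reads in the knockout and 1617 in the control (0.517 of control, 0.475 to 0.563). Alas1, the rate-limiting enzyme of heme synthesis, was at 0.07. Corrected for gene length, the medians were -0.091 for loop partners, -0.10 for turnover, -0.054 for cofactors and -0.29 for outputs.

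**Figure D4:**
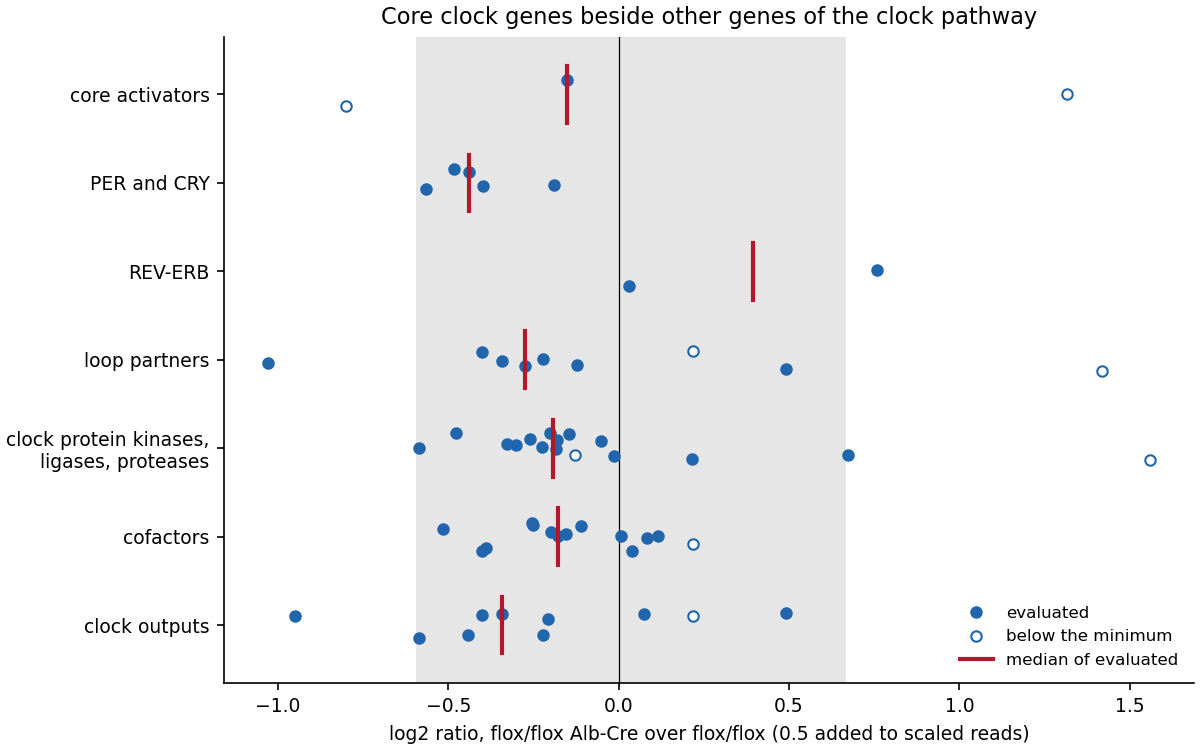
Log2 ratio of knockout over control for single genes, by clock list, with evaluated genes filled, genes below the minimum open, and the median of evaluated genes in red. The grey band runs from the 5th to the 95th percentile of all evaluated genes, and the list medians other than that of REV-ERB lie between -0.44 and -0.15.

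Markers of other liver cells differed between the libraries too. Hepatocyte markers, of which 7 of 8 symbols matched, had a median log2 ratio of 0.00, which is the value of Alb. They went both ways, with 3 below 0 and 4 above, and ranged from -0.28 to 0.53. All 4 evaluated cholangiocyte markers of 6 had a log2 ratio above 0, where 54.0% of all evaluated genes were below 0. The median of the 4 was 2.79. Some of these 4 passed the FPKM minimum in the knockout only, which fixed their direction. With no filter the median of all 6 was 2.34, and their summed reads were 1365 in the knockout and 287 in the control. Of 6 macrophage markers 5 were below 0, beside 54.0% of all evaluated genes. Their median was -0.41, with sums of 2050 reads in the knockout and 2673 in the control. Of 5 endothelial markers 4 were below 0, beside the same 54.0% (median -0.24, sums of 2605 and 3012 reads in knockout and control). Corrected for gene length, the median was -0.38 for macrophage and -0.10 for endothelial markers. Of 6 stellate markers 5 were above 0 and 1 below, where 54.0% of all evaluated genes were below 0. Their median was 0.42, with sums of 1352 reads in the knockout and 1255 in the control. A stellate marker also passed the FPKM minimum in the knockout only. None of 5 lymphocyte markers was evaluated, with sums of 121 reads in the knockout and 149 in the control, and Cd79a was at 0 in the knockout. The part of these cells in the clock gene values was not tested.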

How the data were processed

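RNA of mouse liver was sequenced in 1 library per genotype. The counts are whole-number reads per gene, deposited by the authors without normalization, and the FPKM values are theirs too. Each deposited FPKM was recomputed from count, gene length and column total, with a largest difference of 4.73e-11. The submitters' processing notes name Bowtie2 2.4.2 and mm10. The sources used here do not give the counting program, annotation, strand setting or handling of reads with several matches. The column headings mark the libraries as WT and KO, and these were matched to the labels without and with Alb-Cre.

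Library totals of 12176239 (knockout) and 12428975 (control) reads were scaled with the TMM method of edgeR 4.0.16 (R 4.3.3), whose factors were 0.996 for the knockout and 1.004 for the control. Log2 ratios had 0.5 added to scaled counts, and folds had nothing added. Intervals are exact: Clopper-Pearson from how a gene's reads split, Poisson for levels, and conditional for ratios of ratios. They cover counting error only, since each genotype has 1 library. If copies of the same molecule were counted as separate reads, the reads are not independent and the intervals are too narrow even for that error. Fold limits were 2 and 1.5. Calculations ran in Python 3.11.15 with scipy 1.17.1, pandas 2.3.3, numpy 2.4.6 and matplotlib 3.10.9. The calculation was tested on simulated counts. Gene coordinates and exon unions of the 10 genes matched GENCODE M21, and promoter letters are from RefSeq. The members and lists were chosen with earlier results of these data known, and 1 loop partner is not reported here. Named genes were the 10 members, Hnrnpk, Alb, Dbp, Tef, Hlf and Nfil3, and in each clock or cue list those past 2-fold and those with the largest and smallest log2 ratio by size. Outside this rule are Thra and D930015M05Rik, named for their overlap with members, and Cd79a, a marker at 0 that was named after its value was seen. Alternatives covered scaling (with DESeq2 1.42.0), unit, pseudocount, filter and gene length.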

Additional observations from a re-analysis of the deposited data

How the results depend on the processing

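Over 6 alternatives of scaling, unit, pseudocount and gene length, 59 of 60 single-gene log2 ratios kept their sign and 59 lay inside the gene's counting interval. The exception was Clock, at 0.035 after the running median over 401 genes of like length was subtracted, and the activator median was then 0.035 as well. The PER and CRY median became -0.33 under that correction. The medians of the activator, PER and CRY, and REV-ERB genes otherwise moved by less than the counting error of their summed reads. With no filter on low values, 1 gene (Npas2, on 11 reads) was at least 2-fold apart and 3 (Npas2, Arntl and Nr1d1) were at least 1.5-fold apart. Leaving out Per2, the PER and CRY gene with most reads, moved the ratios of read ratios little, to 1.19 for activators over PER and CRY and 1.53 for REV-ERB over PER and CRY. They moved further without Clock or Nr1d2. Activators over PER and CRY became 0.980 without Clock, and by construction that ratio then rests on Arntl and Npas2 alone. Activators over REV-ERB became 0.638 without Clock and 0.525 without Nr1d2, and REV-ERB over PER and CRY became 2.28 without Nr1d2. No paired analysis was possible because each genotype has 1 library. Leaving out a replicate was not possible for the same reason. Depth limits Arntl and Npas2 most.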

Other observations

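Genes that respond to cues known to set the liver clock were read beside the clock genes. Of 6 glucocorticoid-linked genes all were evaluated and 0 were 2-fold apart, where 3.66% of all evaluated genes were. At 1.5-fold 2 were lower and 0 higher, beside 5.37% lower and 6.16% higher of all evaluated genes. The log2 ratio was below 0 for 5, beside 54.0% of all evaluated genes, and the median was -0.18. Zbtb16, a glucocorticoid-induced transcription factor gene, was lowest, with 662 reads in the knockout and 1087 in the control (0.626 of control, 0.568 to 0.691), while Nr3c1, the receptor gene, was at -0.04. Per1, which also responds to glucocorticoids, was at -0.57.

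Of 9 temperature-linked genes 8 were evaluated, 0 were 2-fold apart (3.66% of all evaluated genes) and the median was -0.01. The cold-inducible RNA-binding protein gene Rbm3 had 447 reads in the knockout and 288 in the control (1.60-fold, 1.37 to 1.86), while the heat shock gene Hspa1b was at 0.02. Hspa1b has a near-identical copy, so its reads are uncertain. Of 11 genes that follow feeding and fasting, 10 were evaluated, with 1 past 2-fold on the higher side (2.53% of all evaluated genes), 0 on the lower side (1.13%) and a median of 0.18. That gene was Igfbp1, which insulin represses, with 823 reads in the knockout and 346 in the control (2.45-fold, 2.16 to 2.78), and Fasn, the fatty acid synthase gene, was at -0.12. The sources used here do not give feeding state or hour of collection, and the part of these cues in the clock gene values was not tested.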
